A study of Mus musculus with 3 samples.

Results

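The 7 genes described here belong to the signal that draws out the ureteric bud in the early mouse kidney. They are the ligand gene Gdnf, the receptor gene Ret, the downstream genes Etv4, Spry2 and Wnt11, and the nephric duct and bud genes Gata3 and Calb1. They were taken by name, as probes that the platform annotation gives to a single gene symbol and that had values on all 3 arrays. Each of the 7 genes had 1 such probe, out of 19660 gene probes and 14047 genes measured on all arrays. Their Entrez identifiers are 14573 (Gdnf), 19713 (Ret), 18612 (Etv4), 24064 (Spry2), 22411 (Wnt11), 14462 (Gata3) and 12307 (Calb1).

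The arrays set RNA of metanephric mesenchyme at 10.5 days post coitum (dpc), in channel 1, against RNA of metanephroi at 11.5 dpc, in channel 2. Age and tissue differed together on every array, so a difference by age cannot be told apart from a difference by tissue. Both tissues came by microdissection from CD1 mouse embryos of pooled sex and carried no genetic change or treatment that the labels name. The RNA was amplified and labelled through amino allyl nucleotides, with arrays 1 and 2 in the dye order red/green and array 3 in the order green/red. Every array held the whole comparison, and nothing in the labels says whether the arrays came from separate dissections, so the p-values reflect no more than how these arrays differ, and that spread may be technical.

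The metanephros forms when the nephric duct sends an epithelial outgrowth, the ureteric bud, into the metanephric mesenchyme. The mesenchyme secretes GDNF, which binds the co-receptor GFRA1 and activates the receptor tyrosine kinase RET on the duct and on the bud tips. RET signalling maintains the ETS transcription factors ETV4 and ETV5 and the secreted factor WNT11 in the tips, WNT11 in turn sustains Gdnf in the mesenchyme, and Sprouty proteins dampen the response. GATA3 is required in the duct for normal Ret expression, and the calcium-binding protein calbindin, encoded by Calb1, marks duct and bud epithelium.

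The values are log2 ratios of the 2 channels, as normalized by the authors. The labels do not give the numerator, so the sign of a ratio tells genes of opposite sides apart without naming the tissue with more RNA. In such bulk RNA, a change in the share of cells of a type cannot be told apart from a change in RNA per cell. A ratio of 1 on the log2 scale is a 2-fold difference. Whether array 3 was turned by the submitters to match the others is also not given. Across genes, which are not independent replicates, its ratios had Pearson correlations of 0.0644 with array 1 and 0.0219 with array 2, against 0.365 between arrays 1 and 2, and Spearman correlations of 0.258, 0.208 and 0.501. As deposited, 2750 genes had an unadjusted p under 0.05 by limma, and with the sign of array 3 turned 779 genes did. Array 3 was used as deposited, and means with its sign turned are given beside each of the 7 genes. For the 48 other genes that the naming rule takes from gene lists, each with the same sign on all arrays, turning array 3 brought every mean nearer to 0, which follows from that choice, reduced 35 of them to at most 50% of their size and reversed 1, Frem2.

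The promoters of the RET target genes Spry2 and Wnt11 are shown because ETV4, whose own gene lay on the same side as Spry2, is an ETS factor that binds DNA around a GGAA core. The RefSeq promoter table of build GRCm38.p6 held windows of 300 bases, from 250 before to 50 after a gene's start, for 4 of the 7 genes (Spry2, Wnt11, Gata3 and Gdnf), 6 windows in all. Windows are printed 5′ to 3′ on the gene's strand. Capitals mark the 6 bases of the extended motif CCGGAA, searched on both strands, so that TTCCGG is the same motif read from the other strand. Spry2 lies on the minus strand at chr14:105896770-105897069, and the windows of Wnt11 on the plus strand at chr7:98834862-98835161 and chr7:98838595-98838894.
Spry2: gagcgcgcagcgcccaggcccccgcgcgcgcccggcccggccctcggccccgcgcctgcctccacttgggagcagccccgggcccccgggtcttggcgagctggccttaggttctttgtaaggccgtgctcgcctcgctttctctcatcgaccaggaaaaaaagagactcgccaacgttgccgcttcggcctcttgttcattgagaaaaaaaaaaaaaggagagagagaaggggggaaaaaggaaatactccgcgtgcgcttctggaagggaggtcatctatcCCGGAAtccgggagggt
Wnt11, first start: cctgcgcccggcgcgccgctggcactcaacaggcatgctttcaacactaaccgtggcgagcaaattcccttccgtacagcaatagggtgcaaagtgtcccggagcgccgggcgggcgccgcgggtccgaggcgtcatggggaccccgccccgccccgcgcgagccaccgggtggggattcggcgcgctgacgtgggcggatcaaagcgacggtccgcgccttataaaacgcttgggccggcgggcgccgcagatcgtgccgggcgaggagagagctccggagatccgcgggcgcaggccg
Wnt11, second start: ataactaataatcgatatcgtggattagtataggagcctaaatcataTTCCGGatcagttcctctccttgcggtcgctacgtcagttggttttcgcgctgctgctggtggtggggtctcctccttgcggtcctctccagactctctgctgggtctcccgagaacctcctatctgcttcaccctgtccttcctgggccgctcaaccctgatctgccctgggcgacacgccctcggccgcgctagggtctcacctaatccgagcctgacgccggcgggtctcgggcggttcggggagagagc

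The motif CCGGAA occurred in 3 of the 6 windows, once each in Spry2, in the second window of Wnt11 and in the window of Gata3, which lies on the minus strand at chr2:9878551-9878850. In Spry2 it began at base 284 of the window, after the gene's start, and in Wnt11 and Gata3 at base 48. Neither Gdnf window, on the plus strand at chr15:7809798-7810097 and chr15:7813477-7813776, held it. Of 32851 promoter windows of that length, 14.9% held CCGGAA on either strand. The core GGAA, which every CCGGAA contains, was found in 96.0% of all windows, with 5 occurrences in Spry2 and 2 to 7 in the other windows of these genes. These matches describe letters in a window and are not binding sites.

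No member passed the test over all genes: by limma, 0 of 7 members and 0 of 14047 genes (0%) had a Benjamini-Hochberg adjusted p under 0.05. At an unadjusted p under 0.05 there were 4 of 7 members, against 2750 of all genes, or 19.6%. These were Etv4, Spry2 and Calb1 with positive means, where 9.89% of all genes lay, and Ret with a negative mean, where 9.69% lay. The sign was the same on all 3 arrays for all 7 members, 6 of them positive and 1 negative, against 22.9% of all genes positive and 22.5% negative throughout, 45.5% together. Turning array 3 reversed the direction of the mean for 2 of 7 members, Wnt11 and Gata3, and for 28.9% of all genes. The median of the 7 mean ratios was 0.64, beside -0.002 over all genes. The genes were listed with earlier results of these data known, so these counts are descriptions.

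**Figure D1:**
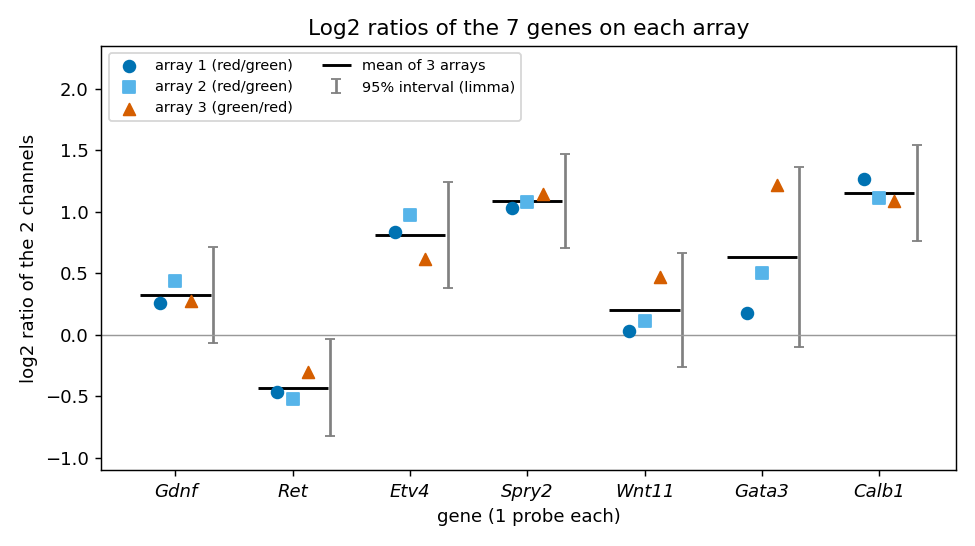
Log2 ratio of the 2 channels (vertical axis) for the 7 genes (horizontal axis), with a point per array marked by its dye order, the mean of the 3 arrays as a black line and the 95% interval of the mean from limma in grey. Calb1, Spry2 and Etv4 lie between 0.62 and 1.27 on every array, Ret lies below 0 on every array, and Gata3 and Wnt11 are highest on array 3.

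Gdnf, the ligand made by the mesenchyme, had log2 ratios of 0.26 on array 1, 0.44 on array 2 and 0.27 on array 3. All of them lay above 0 and close together, and array 3 fell between the arrays of the other dye order. The mean was 0.32 ± 0.10 (SD, n = 3), a 1.25-fold difference, with a 95% interval from -0.07 to 0.72 that holds 0 and an adjusted p of 0.315 by limma. With array 3 turned the mean was 0.14.

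Ret, the receptor tyrosine kinase through which GDNF acts, had -0.46, -0.52 and -0.30 on arrays 1, 2 and 3. It was the only member below 0, and array 3 lay nearest to 0. The mean was -0.43 ± 0.11 (SD, n = 3), a 1.34-fold difference, with a 95% interval from -0.82 to -0.03, an unadjusted p of 0.0403 and an adjusted p of 0.234 by limma. It was -0.22 with array 3 turned.

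Ligand and receptor thus had ratios of opposite sign on every array. The log2 ratio of Gdnf minus that of Ret was 0.72, 0.96 and 0.58, with a mean of 0.75 ± 0.19 (SD, n = 3). A two-sided exact permutation of signs over 3 arrays cannot go below a p of 0.25, and this difference gave 0.25, or 0.375 after Benjamini-Hochberg adjustment over the 9 gene pairs compared. Any difference with the same sign on all 3 arrays gives 0.25, and the pairs were chosen after the values were seen. The p-values of such pairs therefore only restate the shared sign.

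Spry2, a Sprouty protein gene induced by receptor tyrosine kinase signalling that inhibits the same pathway, had 1.03, 1.08 and 1.15. These values hardly differed between arrays or dye orders. The mean was 1.09 ± 0.06 (SD, n = 3), a 2.13-fold difference, with a 95% interval from 0.71 to 1.47, an unadjusted p of 0.00155 and an adjusted p of 0.149 by limma. Its mean ranked at percentile 97.1 of all genes and its SD at percentile 3.3. With array 3 turned the mean was 0.32.

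Etv4, the ETS factor gene that RET signalling maintains in the bud tips, had 0.84, 0.98 and 0.62. Array 3 was the lowest and all arrays lay well above 0. The mean was 0.81 ± 0.18 (SD, n = 3), a 1.75-fold difference, with a 95% interval from 0.38 to 1.24, an unadjusted p of 0.00689 and an adjusted p of 0.16 by limma. It was 0.40 with array 3 turned.

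Wnt11, the tip gene that feeds back on Gdnf, had 0.04, 0.11 and 0.47. The red/green arrays lay close to 0, and most of the mean came from array 3. The mean was 0.20 ± 0.23 (SD, n = 3), a 1.15-fold difference, with a 95% interval from -0.26 to 0.67 and an adjusted p of 0.536 by limma. Without array 3 the mean was 0.07, and with array 3 turned it was -0.11, so its direction is not settled.

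Gata3, the zinc finger transcription factor of the nephric duct, had 0.18, 0.51 and 1.22. It was the most variable member, with array 3 the highest. The mean was 0.64 ± 0.53 (SD, n = 3), a 1.55-fold difference, with a 95% interval from -0.10 to 1.37 and an adjusted p of 0.297 by limma. Its SD ranked at percentile 69.3 of all genes. Without array 3 the mean was 0.34 and with array 3 turned it was -0.18, so its direction is not settled either.

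Calb1, the calbindin gene used as a marker of duct and bud epithelium, had 1.27, 1.12 and 1.09. All arrays lay above those of every other member but Spry2 and Gata3, whose array 3 values were in the same range. The mean was 1.16 ± 0.10 (SD, n = 3), a 2.23-fold difference, with a 95% interval from 0.77 to 1.55, an unadjusted p of 0.00136 and an adjusted p of 0.149 by limma. It ranked at percentile 97.6 of all genes by its mean and 8.1 by its SD. With array 3 turned the mean was 0.43.

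**Figure D2:**
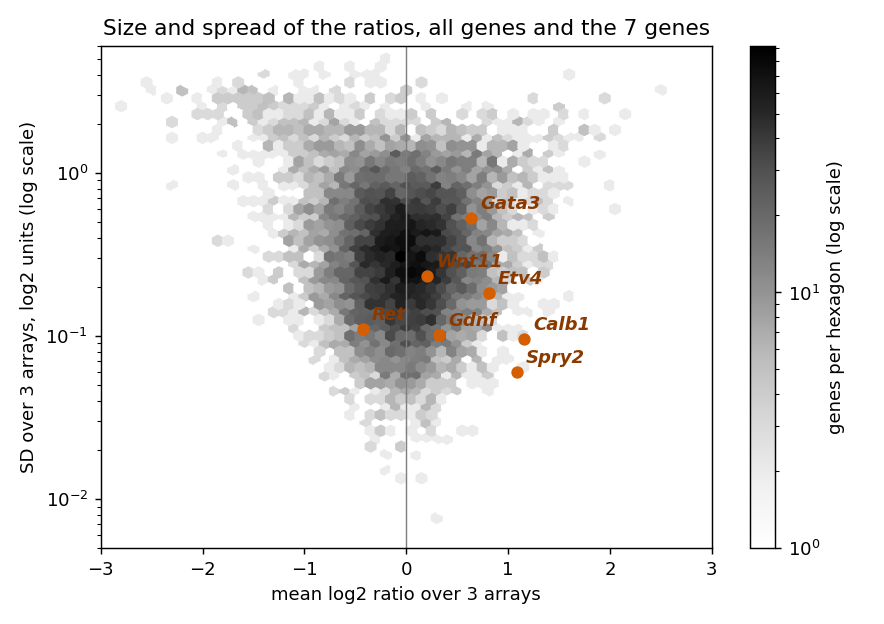
Mean log2 ratio over the 3 arrays (horizontal axis) and SD over the arrays on a log scale (vertical axis) for all 14047 genes as grey hexagons shaded by the number of genes, with the 7 genes as orange points; genes beyond 3 in size are outside the axis. Spry2 and Calb1 combine means of 1.09 and 1.16 with SDs of 0.06 and 0.10, at the lower right edge of the cloud, while Gata3 has an SD of 0.53.

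In order of their means the members ran from Calb1 and Spry2 through Etv4, Gata3, Gdnf and Wnt11 to Ret. The ranges of neighbours over the arrays overlapped for Calb1 and Spry2, for Etv4 and Gata3, for Gata3 and Gdnf and for Gdnf and Wnt11, and did not overlap for Spry2 and Etv4 or for Wnt11 and Ret. Spry2 exceeded Etv4 on every array, by 0.19, 0.10 and 0.53, with a mean difference of 0.28 ± 0.23 (SD, n = 3). That difference had an exact sign permutation p of 0.25, as any difference of 1 sign on all arrays has, and an adjusted p of 0.375.

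A fit with a term for dye order splits each ratio into a part shared by the dye orders and a part that changes sign between them. The shared part was 1.14 for Calb1, 1.10 for Spry2, 0.76 for Etv4 and -0.40 for Ret, close to the plain means. For Gata3 it was 0.78, with a dye part of -0.44, the largest in size among the members, and for Wnt11 it was 0.27 with a dye part of -0.20. With the dye term Ret had an unadjusted p of 0.0617 and Gata3 one of 0.0196 by limma, so the count of members under 0.05 stayed at 4 with Gata3 in place of Ret. A dye part on a single array of the second order cannot be told apart from that array's own deviation.

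**Figure D3:**
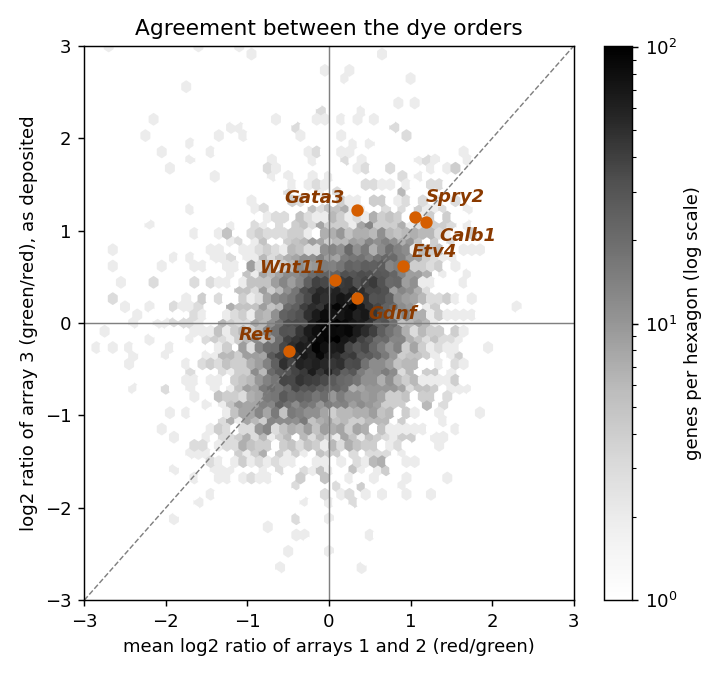
Mean log2 ratio of arrays 1 and 2, dye order red/green (horizontal axis), against the log2 ratio of array 3, dye order green/red, as deposited (vertical axis), for all genes as grey hexagons and the 7 genes as orange points; the dashed line marks equal ratios and some genes lie outside the axes. All 7 genes lie in the quadrants of equal sign, with Gata3 (0.34 and 1.22) and Wnt11 (0.07 and 0.47) above the line and Etv4 (0.91 and 0.62) below it.

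The other GDNF family ligands and receptors did not share a side. Of 8 listed genes besides Gdnf and Ret, 8 were measured, 4 with a positive and 4 with a negative mean. The median was -0.02, or 0.07 with array 3 turned. By limma 1 positive and 1 negative gene had an unadjusted p under 0.05, beside 9.89% and 9.69% of all genes. The ligand gene Nrtn, which encodes neurturin, had -0.55, -0.28 and -0.67, a mean of -0.50 ± 0.20 (SD, n = 3) and an adjusted p of 0.223 by limma. Its sign was opposite to that of Gdnf on each array, but its mean was -0.05 with array 3 turned. Pspn, which encodes persephin, had 0.58 ± 0.50 with all arrays above 0, and Artn, which encodes artemin, had -0.53 ± 1.25 with arrays on both sides and 0.06 with array 3 turned.

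Gfra1, the co-receptor that GDNF uses in the duct, had -0.42, 0.76 and 0.12. Its arrays lay on both sides of 0, and its mean of 0.15 ± 0.59 (SD, n = 3) had an adjusted p of 0.791 by limma. Gfra3, the co-receptor of artemin, had 0.42 ± 0.08 with the same sign on all arrays and 0.09 with array 3 turned, Gfra4 had 0.14 ± 0.15 and Gfra2 had -0.29 ± 1.41. Ncam1, an adhesion molecule that can also bind GDNF, had -0.19 ± 0.16 over 3 probes. By limma 0 of these genes had an adjusted p under 0.05.

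Of 32 listed adaptors and transducers that carry the signal from RET through the RAS, PI3K and phospholipase C branches, 22 were measured, 9 with positive and 13 with negative means, and the median was -0.045. Of these, 5 negative genes and 0 positive ones had an unadjusted p under 0.05, beside 9.69% and 9.89% of all genes, and 0 passed the adjusted threshold by limma. Pik3r1, the regulatory subunit of PI3K, had -0.96 ± 0.53, and Akt1, a kinase downstream of it, had -0.63 ± 0.18. Dok4, an adaptor that binds RET, had -0.55 ± 0.04, and Plcg1, a phospholipase, had -0.44 ± 0.09 over 2 probes. With array 3 turned the means were -0.70 for Pik3r1, -0.10 for Akt1, -0.20 for Dok4 and -0.08 for Plcg1. Each of these 4 genes was negative on all arrays as deposited, as the rule for naming requires one sign.

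Targets and feedback inhibitors of RET other than the members lay around 0. Of 13 such genes measured, 6 had a positive and 7 a negative mean, and their median was -0.015. At an unadjusted p under 0.05 were 0 positive genes and 1 negative gene, Dusp6, beside 9.89% and 9.69% of all genes. Spry1, the Sprouty gene that restrains RET signalling in the duct, had -0.34, -0.71 and -0.28, a mean of -0.44 ± 0.23 (SD, n = 3) and an adjusted p of 0.27 by limma. The paralogs Spry2 and Spry1 were thus on opposite sides on every array, with differences of 1.37, 1.80 and 1.43 and a mean of 1.53 ± 0.23, for which the exact sign permutation p was 0.25 and the adjusted p 0.375. Spry4 had 0.23 ± 0.49, with arrays on both sides and -0.29 with array 3 turned.

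Dusp6, a phosphatase that dampens ERK activity, had -0.87, -0.97 and -0.21, on the side opposite to Spry2, with a mean of -0.69 ± 0.42 (SD, n = 3). Etv5, the ETS paralog that acts together with Etv4, had -0.37, 1.01 and -0.73 and a mean of -0.03 ± 0.92, so that no side can be given. Of the remaining genes named by the rule, the matrix protease gene Mmp14 had 0.36 ± 0.32 and Spred1, an inhibitor of RAS and ERK signalling, had 0.16 ± 0.21, each with all arrays above 0. The adjusted p by limma was above 0.05 for each of them.

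Genes that act upstream of Gdnf or Ret were measured for 21 genes besides Gata3, with 10 positive and 11 negative means and a median of -0.08. Of these, 4 positive genes and 1 negative gene had an unadjusted p under 0.05, beside 9.89% and 9.69% of all genes. The forkhead genes Foxc1 and Foxc2, which limit the field of Gdnf expression, had 0.90 ± 0.04 and 0.94 ± 0.08, with every array between 0.86 and 1.03. Wt1, which the mesenchyme needs for bud outgrowth, had 1.75 ± 0.04. Pax8, a paired box gene of the nephric duct lineage, had -0.66 ± 0.11, the side of Ret. All had adjusted p between 0.149 and 0.169 by limma.

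Modulators of budding were measured for 23 of 27 listed genes, with 10 positive and 13 negative means and a median of -0.16. Of these, 2 positive and 3 negative genes had an unadjusted p under 0.05, beside 9.89% and 9.69% of all genes. Agtr2, an angiotensin receptor gene, had 1.08 ± 0.39, or 0.11 with array 3 turned, and Frem2, a basement membrane protein gene of the Fraser complex, had 0.92, 1.72 and 2.94, a mean of 1.86 ± 1.02 (SD, n = 3). Like Gata3, Frem2 was highest on array 3, and with array 3 turned its mean was -0.10. The glypican gene Gpc3 had -0.61 ± 0.14 and Ext1, a heparan sulfate polymerase gene, had -0.48 ± 0.20. Adjusted over all genes, 0 of these passed by limma.

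**Figure D4:**
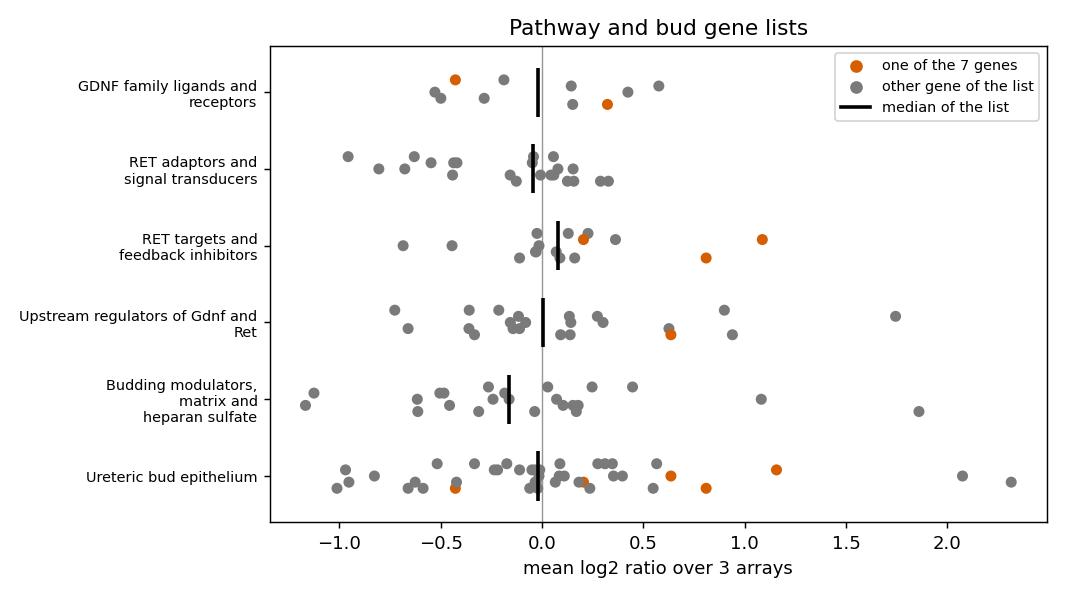
Mean log2 ratio over the 3 arrays (horizontal axis) for the measured genes of 6 lists (vertical axis, with points offset for legibility), the 7 genes in orange, other genes in grey and the median of each list as a black line. The list medians lie between -0.16 and 0.08. Single genes spread further, the 7 genes from -0.43 to 1.16 and the other genes from -1.17 to 2.32.

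The list of bud epithelium genes held 5 of the members, with positive means for Calb1, Etv4, Gata3 and Wnt11 and a negative mean for Ret, and its other genes likewise spread to either side of 0. Of 37 measured bud epithelium genes other than the members, 15 had a positive and 22 a negative mean, and the median was -0.03. Counted at an unadjusted p under 0.05, 4 were positive and 5 negative, beside 9.89% and 9.69% of all genes. Cdh16, the kidney cadherin gene, had 2.08 ± 0.30 and Mia had 2.32 ± 0.58, while Cldn6, a tight junction gene, had -1.01 ± 0.14. The keratin genes Krt7, Krt8 and Krt19 had -0.52 ± 0.10, -0.59 ± 0.09 and -0.83 ± 0.54, below 0 on every array. Epcam had -0.05 ± 0.08 and Cdh1 had 0.07 ± 0.45, with arrays on both sides. Each missed the adjusted threshold by limma.

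Paralogs of the bud members were on both sides too. Gata2, a zinc finger factor gene related to Gata3, had 0.63, 0.73 and 0.34, a mean of 0.57 ± 0.20 (SD, n = 3), on the side of Gata3 but with array 3 lowest. Gata3 minus Gata2 was -0.45, -0.22 and 0.88, with arrays on both sides. Wnt9b, a Wnt gene of the duct and bud stalk, had 0.24 ± 0.04, and Wnt11 minus Wnt9b had a mean of -0.03 ± 0.27. Wnt7b, a Wnt gene of the bud stalk, had -0.42 ± 0.38 and lay below Wnt11 on every array.

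Other cell types that the dissections could hold were read from marker lists. Mesenchyme genes other than Gdnf had 10 positive and 7 negative means and a median of 0.14, and renal stroma genes had 9 and 6 with a median of 0.06. At an unadjusted p under 0.05 were 6 positive and 0 negative of the 17 mesenchyme genes, and 6 positive and 2 negative of the 15 stroma genes, against 9.89% and 9.69% of all genes. Of the 17 mesenchyme genes 7 were positive and 3 negative on all arrays, beside 22.9% and 22.5% of all genes. Their means ran from -0.50 to 1.91. The highest of them, Crym, a thyroid hormone binding protein gene, had 1.91 ± 0.10, on the side of Calb1 and Spry2. On the same side, Foxd1, a stromal transcription factor gene, had 1.56 ± 0.17. The stromal list also held Dlk1 at -2.46 ± 0.13.

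Limb bud and somite genes were negative in 14 of 16 cases, where 7048 of all 14047 genes were. Their median was -0.76, and the mean over the list lay between -1.32 and -1.15 on each array. By limma 9 negative genes and 1 positive gene had an unadjusted p under 0.05, against 9.69% and 9.89% of all genes. Acta1, the skeletal muscle actin gene, had -4.96 ± 0.92, and the positive gene was Meox2, at 0.62 ± 0.11 with all arrays above 0. Gut and other epithelium genes were negative in 9 of 14 cases with a median of -0.36, and endothelial genes in 12 of 14 with a median of -0.25. At an unadjusted p under 0.05 were 6 gut and 4 endothelial genes with negative means, and 1 and 0 with positive means. The shares of all genes were 9.69% and 9.89%. The 6 of the gut list were Fabp1, Afp, Ttr, Trf, Apoa1 and Sox17, and the positive gene was Cdx2, at 0.52 ± 0.12. Hnf4a, Alb, Shh and Vil1 also had positive means, and Foxa1, Foxa2 and Cdx1 had negative ones. The medians of these lists lay on the side of Ret, and the part of these genes in the ratio of Ret was not tested.

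Ret is also expressed by neurons and by neural crest cells that enter the gut. Of 15 measured markers of these cells 6 had positive and 9 negative means, with a median of -0.06, or 0.09 with array 3 turned. The mean over the list lay between -0.29 and -0.01 on each array. At an unadjusted p under 0.05 were 1 positive and 2 negative markers, beside 9.89% and 9.69% of all genes. Dcx, a neuronal microtubule protein gene, had 1.40 ± 0.29 and Tubb3, a neuronal tubulin gene, had -0.60 ± 0.04. Sox10, the defining crest factor gene, had -0.37, 0.94 and -0.94. Erythroid genes had 2 positive and 7 negative means and a median of -0.04. At an unadjusted p under 0.05 were 0 and 1 of them, beside the same shares of all genes. The part of these cells in the ratio of Ret was not tested, and ratios do not show whether any marker was near 0 in either tissue.

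The genes whose ratios over the 3 arrays lay nearest to those of a member, by the root mean square difference, were as follows. Nearest to Gdnf were Ints13 at 0.0112 and Mpzl1 at 0.0202, and nearest to Ret were 4430401P03Rik at 0.0173 and Ppp2r1b at 0.0286. Nearest to Etv4 were Tmtc3 at 0.0376 and Klhl24 at 0.0397, and nearest to Wnt11 were T2 at 0.0165 and Ppib at 0.0238. Such neighbours were common for the members near 0, since 163 genes lay within 0.1 of Gdnf, 106 of Ret and 96 of Wnt11. Neighbours were few for the members with larger or more variable ratios. Nearest to Spry2 were Sqor at 0.0717 and Rev3l at 0.0768, among 6 genes within 0.1. Calb1 had Iftap at 0.0402 and 1700040F15Rik at 0.0431, among 8. For Gata3, 1700100L14Rik at 0.0912 and Fam98b at 0.0994 were the only genes within 0.1.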

How the data were processed

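Metanephric mesenchyme of 10.5 dpc and metanephroi of 11.5 dpc were compared on 3 two-colour arrays of a Compugen mouse oligonucleotide set. Per the labels, image analysis by the authors used Imagene 5.5, and normalization in R combined a lowess fit per print tip, using 20% of the data per point, with a step between arrays. A control channel below 10 was raised to 10, per the labels. What was deposited is the log2 ratio of the channels per spot. Intensities, background and the numerator are not given in the sources used here, the number of arrays limits the precision, and lowess centres ratios, so a shift of most genes would not show.

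Of 22702 rows, 21912 were gene probes, 764 were spots without a value such as blanks, and 26 were other controls. Controls stayed out. In the platform annotation 16656 gene probes had 1 symbol, 137 several and 5119 none, and updating through Entrez identifiers changed 0 symbols. Probes of 1 symbol with values on all arrays were averaged. A two-sided moderated test of the mean ratio against 0 was made in limma 3.58.1 (lmFit, eBayes; R 4.3.3), adjusted by Benjamini-Hochberg over all 14047 genes with a threshold of 0.05, after the script was tested on simulated data. Values after ± are SDs over arrays. Plots used Matplotlib 3.10.9 in Python 3.11.15.

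The 7 members and all gene lists were chosen with earlier results of these data known. Named genes are the members, their listed paralogs, up to 4 genes per list of smallest unadjusted p with 1 sign on all arrays, and the 2 genes of nearest pattern per member. Sox10, Meox2, the further genes named from the gut and other epithelium list, and the genes in the closing section were chosen after their values were seen. So were Krt7, Krt8, Krt19, Epcam and Cdh1 of the bud epithelium list. Lists are described by counts and medians, with no test. Alternatives covered the sign of array 3, centring, scaling, a dye term, missing values, variance moderation, array weights, extreme values, joining of probes and each array left out. Unadjusted counts were added after the data were seen.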

Additional observations from a re-analysis of the deposited data

How the results depend on the processing

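At an adjusted p of 0.05 the counts of genes and of members stayed at 0 by limma under all 13 alternatives, and a count of 0 throughout says little about stability. The lowest adjusted p of any member was 0.0764, for Spry2 and Calb1 with array weights. Gdnf, Ret, Etv4, Spry2 and Calb1 kept their sign under all 13, with means from 0.14 to 0.36, from -0.49 to -0.22, from 0.40 to 0.91, from 0.32 to 1.12 and from 0.43 to 1.21. With array 3 turned the other way Wnt11 had -0.11 and Gata3 had -0.18, the reverse of 0.20 and 0.64, while 28.9% of all genes turned. The cause was not tested. At an unadjusted p under 0.05, a count chosen after seeing the data, there were 2750 genes and 4 members. With array 3 turned there were 779 genes and 0 members. With an array left out there were 1156 to 2943 genes and 2 to 3 members, fewest for both without array 1, where Spry2 and Calb1 remained under 0.05. Each array already holds both tissues, so the test of its ratio against 0 is itself a comparison within arrays. The labels form a single group, so no further pairing was possible. Signal over background was not analysed here, so dim spots cannot be set apart.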

Other observations

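Several regulators of the Gdnf and Ret loop gave no settled side, with arrays on both sides of 0. Pax2, a paired box gene that activates both Gdnf and Ret, had log2 ratios of -0.05, 0.66 and -1.61 on arrays 1, 2 and 3. Eya1, a transcriptional partner in Gdnf activation, had 0.86, 0.23 and -0.66, and Robo2, the receptor that restricts Gdnf, had 0.71, 0.85 and -0.66. Both were positive on the red/green arrays and negative on the green/red array. Slit2, the ligand of Robo2, had 0.54, 0.51 and 0.83, with an adjusted p of 0.178 by limma, so ligand and receptor shared a sign on arrays 1 and 2 alone. Grem1, the BMP antagonist needed for budding, had -4.09, -0.11 and 0.82, so that its mean of -1.13 rests on array 1, while Bmp4, which it opposes, had -0.52, -0.16 and -0.26.

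Probes without a value on every array stayed out of the tests. A second probe of Etv5 had 1.56 on array 3 alone, where the tested probe had -0.73, so probes of this gene disagreed in sign on the same array. Lhx1, a bud and duct transcription factor gene, had -2.05 on array 1 alone.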
